A study of Homo sapiens with 8 samples.

Results

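The genes described are the AP-1 subunits and their companion immediate early factors, 10 of the 18164 genes in the authors' table, taken by symbol: FOS, FOSB, FOSL1 and FOSL2 of the FOS family, JUN, JUNB and JUND of the JUN family, ATF3, EGR1 and IER2. All 10 reached the level required for testing. They were measured by RNA sequencing of whole orthotopic tumors of HCC1937, an established cell line from a human triple-negative breast cancer, implanted in inguinal mammary fat pads. The host was the immunodeficient NCG mouse (NOD/ShiLtJGpt-Prkdcem26Cd52Il2rgem26Cd22/Gpt), which carries edited Prkdc and Il2rg genes and lacks T, B and NK cells. The NMN group was 4 tumors, NMN 1 to 4, from animals dosed with the NAD+ precursor nicotinamide mononucleotide at 500 mg/kg/day, and the Vehicle group was 4 tumors, Vehicle 1 to 4. Groups were formed at a tumor volume of 100 to 150 mm3. All 8 tumors share the 1 cell line and the mouse strain, and the age of the mice and the length of treatment are not given in the labels. Nothing in the labels ties each tumor to a mouse of its own, and p-values therefore measure only the spread between these samples. The comparison addresses what NMN did to the tumor transcriptome, in a study whose title concerns metastasis, SIRT1 and p66Shc.

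AP-1 is a transcription factor made of a pair of basic leucine zipper proteins, usually a FOS-type partner bound to a JUN-type partner, that binds the DNA element known as the TRE. FOS, JUN, EGR1, ATF3 and IER2 are immediate early genes, transcribed within minutes of growth factor, stress or mechanical signals without new protein synthesis, through SRF with its ETS partners, through CREB or ATF proteins and through AP-1 itself, and their transcripts are short-lived. FOSL1 and FOSL2 come up later and last longer, and in basal-like breast cancer FOSL1 is known for its part in invasion.

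Values are TPM, a share of all transcripts in the library scaled for transcript length, so that levels of different genes within a tumor can be set side by side. Epithelial and basal markers were present: EPCAM ran from 91.0 to 182 TPM over the 8 tumors, KRT5 from 2817 to 6488 and KRT14 from 2603 to 6953. PGR lay between 0 and 0.02 TPM, ESR1 between 3.37 and 6.00 and ERBB2 between 77.6 and 130 TPM. TPM keeps no record of depth, so no counting interval is given. How reads of mouse origin were treated is not stated in the labels, so a level may hold both species. In whole tissue fewer cells of a type cannot be told apart from less RNA per cell.

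The promoters are shown first because these genes are known for the control elements near their start sites. RefSeq (GRCh38.p14) gave 10 windows, from 250 bases before to 50 after the start, for 9 of the genes. The EGR1 window held a pair of CArG boxes, the element bound by SRF, and a pair of TGACGT matches, all in capitals in the stretch below (chr5:138465329-138465478, plus strand).
EGR1: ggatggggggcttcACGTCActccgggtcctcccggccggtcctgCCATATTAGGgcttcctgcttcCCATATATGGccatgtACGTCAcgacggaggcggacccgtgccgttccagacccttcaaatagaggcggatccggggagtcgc
The shorter stretches that follow each show 1 match, in capitals, in JUN (chr1:58784096-58784125, minus strand), ATF3 (chr1:212565273-212565302, plus), FOS (chr14:75278752-75278781, plus), FOSB (chr19:45467924-45467953, plus), JUND (chr19:18281804-18281833, minus) and FOSL2 (chr2:28392851-28392880, plus).
JUN: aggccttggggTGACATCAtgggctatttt
ATF3: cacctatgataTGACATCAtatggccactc
FOS: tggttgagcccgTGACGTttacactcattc
FOSB: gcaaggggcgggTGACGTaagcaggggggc
JUND: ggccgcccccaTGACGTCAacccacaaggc
FOSL2: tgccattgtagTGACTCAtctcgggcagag

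Each motif was searched on both strands, with the member promoters in view when the motifs were chosen. TGACATCA, the variant element known from the JUN promoter, was found in JUN and in the upstream ATF3 window, and in 2.61% of all 35116 promoter windows. The TRE letters TGACTCA were found in FOSL2 and in 4.95% of all windows. The CRE letters TGACGTCA, bound by CREB and ATF proteins, were found in JUND and in 1.85%. The shorter TGACGT, which is a part of the CRE, was found in 5 of the 10 windows, those of FOS, FOSB, FOSL2, JUND and EGR1. It was in 7.98% of all windows and in 10.1% of those of tested genes. A CArG box was found in EGR1 alone of the 10 windows and in 1.29% of all. The windows stop 250 bases before the start, so elements farther upstream, in FOS or any other member, were not searched. The lack of a match in a window therefore does not show that a gene has no such element. A match is a run of letters in this window and not a measured binding site.

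JUNB dominated the set. It was the highest of the 10 genes in 8 of 8 tumors, with no overlap between its range over the tumors, 179 to 557 TPM, and that of IER2, the next by mean, at 72.5 to 166 TPM. The ranges of IER2, JUN, EGR1, FOSL2, FOS, JUND and FOSL1 each overlapped that of the next gene in the order. ATF3 and FOSB were the lowest, with ATF3 above FOSB in 8 of 8 tumors and no overlap.

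Within the JUN family, JUNB made up 64.0% ± 6.77 of the summed TPM in NMN tumors and 64.7% ± 6.85 in Vehicle tumors (SD, n = 4 each). JUN supplied 24.6% ± 3.80 in NMN tumors and 22.3% ± 3.36 in Vehicle tumors, and JUND 11.4% ± 3.02 in NMN tumors and 12.97% ± 4.03 in Vehicle tumors. The makeup of the JUN side was thus close in both groups.

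The FOS side differed more. FOS itself made up 41.7%, 53.0%, 53.3% and 24.3% of the FOS-family TPM in NMN 1 to 4, against 23.2%, 27.7%, 23.5% and 12.1% in Vehicle 1 to 4. FOS was the leading subunit of its family in NMN 1, NMN 2 and NMN 3, FOSL2 in NMN 4 and in Vehicle 1, Vehicle 2 and Vehicle 3, and FOSL1 in Vehicle 4, with 54.8% of the family's TPM. FOSB stayed between 0.928% and 3.30% in the 8 tumors.

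Summed over its 4 genes, the FOS family stood at 211, 332, 280 and 149 TPM in NMN 1 to 4, against 110, 190, 131 and 195 TPM in Vehicle 1 to 4. With FOS left out, the sum averaged 131 ± 18.4 TPM in the NMN group, against 123 ± 38.9 TPM in the Vehicle group (SD, n = 4 each). The JUN family summed to 461, 534, 782 and 408 TPM in NMN 1 to 4, against 331, 515, 310 and 424 TPM in Vehicle 1 to 4. JUN-family TPM exceeded FOS-family TPM in all 8 tumors, by a ratio of 2.33 ± 0.556 in NMN tumors and 2.56 ± 0.369 in Vehicle tumors.

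**Figure D1:**
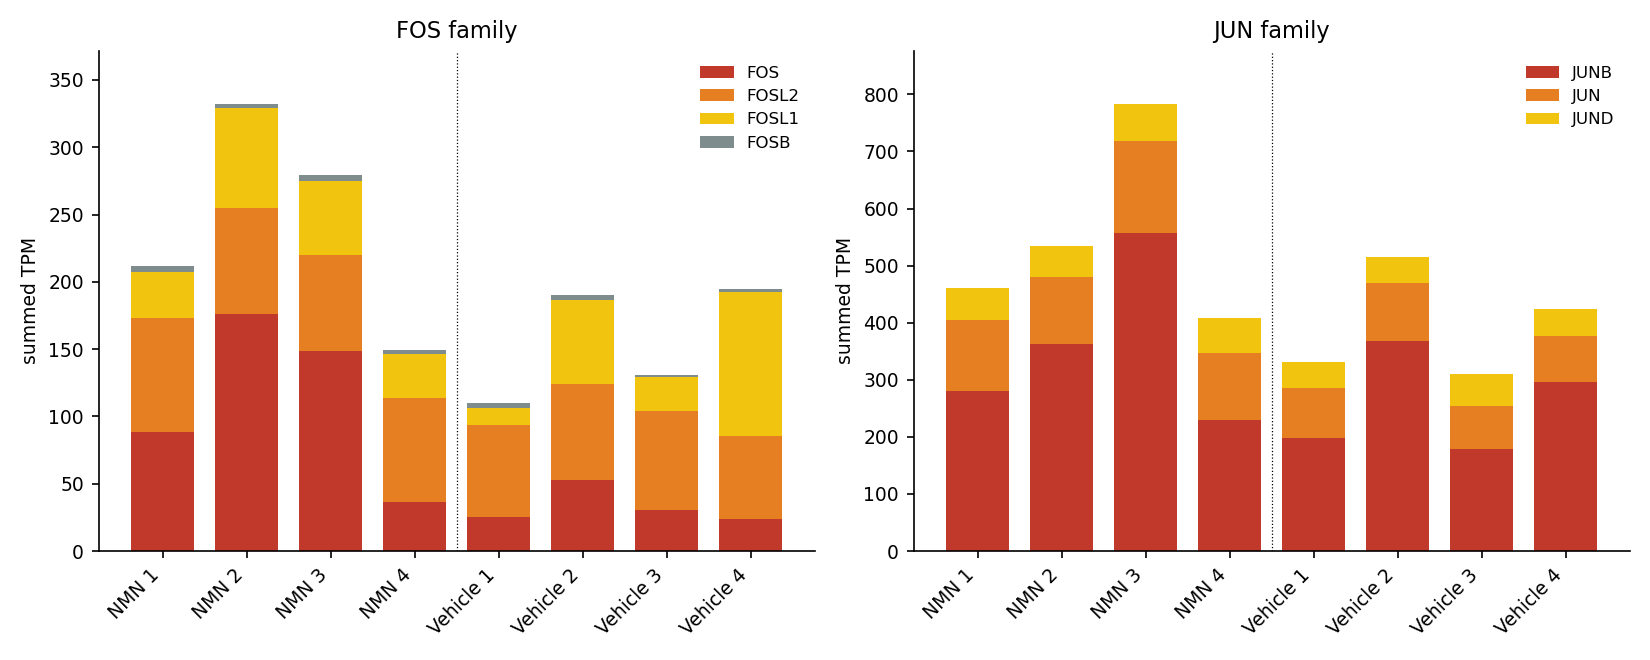
Summed TPM (vertical axis) of the FOS family (left) and the JUN family (right) in each tumor, NMN tumors to the left of the dotted line and Vehicle tumors to the right, with each subunit as a colored part of the bar. The FOS part is tallest in NMN 1, NMN 2 and NMN 3, the FOSL1 part is tallest in Vehicle 4, and JUNB is the largest part of the JUN-family bar in all 8 tumors.

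FOS, the prototype partner of JUN, showed the widest difference between the groups. Its level was 88.2, 176, 149 and 36.2 TPM in NMN 1 to 4, against 25.6, 52.6, 30.8 and 23.6 TPM in Vehicle 1 to 4. NMN 1, NMN 2 and NMN 3 stood above every Vehicle tumor, while NMN 4 lay within the Vehicle range. The mean was 3.38 times that of Vehicle tumors, and the log2 fold change was 1.57 ± 0.42, 95% interval 0.66 to 2.49 (limma, adjusted p = 0.341, and exact two-sided permutation p = 0.0571). Each fold change is that of TPM + 1 in NMN relative to Vehicle tumors, as a log2 value, given with their standard error, and p-values are adjusted over the 13358 genes tested.

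FOSL2 and FOSB, other FOS-type partners, differed less. FOSL2 was the steadiest gene of the set, at 84.6, 78.8, 71.2 and 77.6 TPM in NMN 1 to 4, against 68.05, 71.3, 73.1 and 62.0 TPM in Vehicle 1 to 4. In FOSL2 the groups overlapped by NMN 3 alone, and the log2 fold change was 0.18 ± 0.10 (limma, adjusted p = 0.805). FOSB was scarce, at 3.97, 3.08, 4.91 and 2.79 TPM in NMN 1 to 4, against 3.64, 3.58, 1.5 and 2.41 TPM in Vehicle 1 to 4, a log2 fold change of 0.33 ± 0.23 (limma, adjusted p = 0.886).

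FOSL1, which encodes FRA-1, varied most among the Vehicle tumors. It stood at 34.7, 74.2, 54.5 and 32.5 TPM in NMN 1 to 4, against 12.85, 62.6, 25.5 and 107 TPM in Vehicle 1 to 4. All 4 NMN tumors fell inside a Vehicle range that spanned 8.31-fold. Its mean was lower in NMN tumors in TPM, 49.0 ± 19.5 in NMN tumors and 51.9 ± 42.2 in Vehicle tumors, and higher on the log scale, so the direction depends on the scale. Its log2 fold change of 0.25 ± 0.52 had bounds of -0.90 and 1.40 (limma, adjusted p = 0.976), and it was -0.26 without Vehicle 1.

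JUN and ATF3 were the only members of the set whose groups did not overlap in TPM as deposited, 2 of 10 against 2.08% of all tested genes with the 4 NMN tumors above the 4 Vehicle tumors. No member had them all below, as 0.966% of tested genes did. JUN, the partner that can also pair with itself, was at 124, 118, 162 and 117 TPM in NMN 1 to 4, against 86.9, 102, 74.4 and 81.7 TPM in Vehicle 1 to 4. NMN 3 stood apart above the other 3 NMN tumors. The log2 fold change was 0.58 ± 0.13, bounds 0.30 and 0.87 (limma, adjusted p = 0.268).

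ATF3, a stress-induced factor of the ATF family that pairs with JUN proteins, was at 14.9, 16.7, 15.2 and 12.4 TPM in NMN 1 to 4, against 9.53, 10.8, 9.43 and 9.22 TPM in Vehicle 1 to 4. Its Vehicle tumors lay close together, and NMN 4 was the lowest of the NMN tumors but still above them all. The log2 fold change was 0.55 ± 0.13, bounds 0.26 and 0.85 (limma, adjusted p = 0.272). For JUN and for ATF3 the exact two-sided permutation test gave p = 0.0286, the smallest that 4 tumors against 4 allow. The separation depended on NMN 4 and Vehicle 2 and on the scaling. With median-of-ratios scaling NMN 4 lay below Vehicle 2 in JUN, at 106 against 110 scaled TPM, and in ATF3, at 11.3 against 11.7, and with quantile scaling it did so in ATF3, at 11.2 against 12.1. The TGACATCA element printed above is in the JUN window and the upstream ATF3 window. It was chosen with these promoters in view, and any part of it in the levels of JUN and ATF3 was not tested.

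JUNB, which can oppose JUN at some promoters, was at 281, 363, 557 and 229 TPM in NMN 1 to 4, against 198, 367, 179 and 296 TPM in Vehicle 1 to 4. Only NMN 3 exceeded the highest Vehicle tumor, Vehicle 2, and the log2 fold change was 0.44 ± 0.28 (limma, adjusted p = 0.860). JUND, the JUN protein with the most constant expression in most cells, was at 56.85, 54.1, 63.7 and 62.0 TPM in NMN 1 to 4, against 46.0, 45.8, 56.3 and 46.3 TPM in Vehicle 1 to 4. Vehicle 3 stood apart from the other Vehicle tumors and was the only Vehicle tumor above any NMN tumor. With either scaling the JUND groups no longer overlapped. The JUND log2 fold change was 0.28 ± 0.11 (limma, adjusted p = 0.584).

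EGR1, a zinc finger factor of the same early response, was at 71.4, 129, 166 and 49.9 TPM in NMN 1 to 4, against 40.2, 69.1, 47.8 and 54.0 TPM in Vehicle 1 to 4. As with FOS, NMN 1, NMN 2 and NMN 3 stood above every Vehicle tumor and NMN 4 lay within their range. Its mean was 1.97 times that of Vehicle tumors and its log2 fold change 0.84 ± 0.32 (limma, adjusted p = 0.584). IER2, a nuclear protein encoded by an early response gene, was at 94.3, 115, 166 and 88.4 TPM in NMN 1 to 4, against 72.5, 99.8, 105 and 127 TPM in Vehicle 1 to 4. The highest IER2 value was that of NMN 3, the groups overlapped widely, and the log2 fold change was 0.18 ± 0.21 (limma, adjusted p = 0.952), or -0.0054 without NMN 3.

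**Figure D2:**
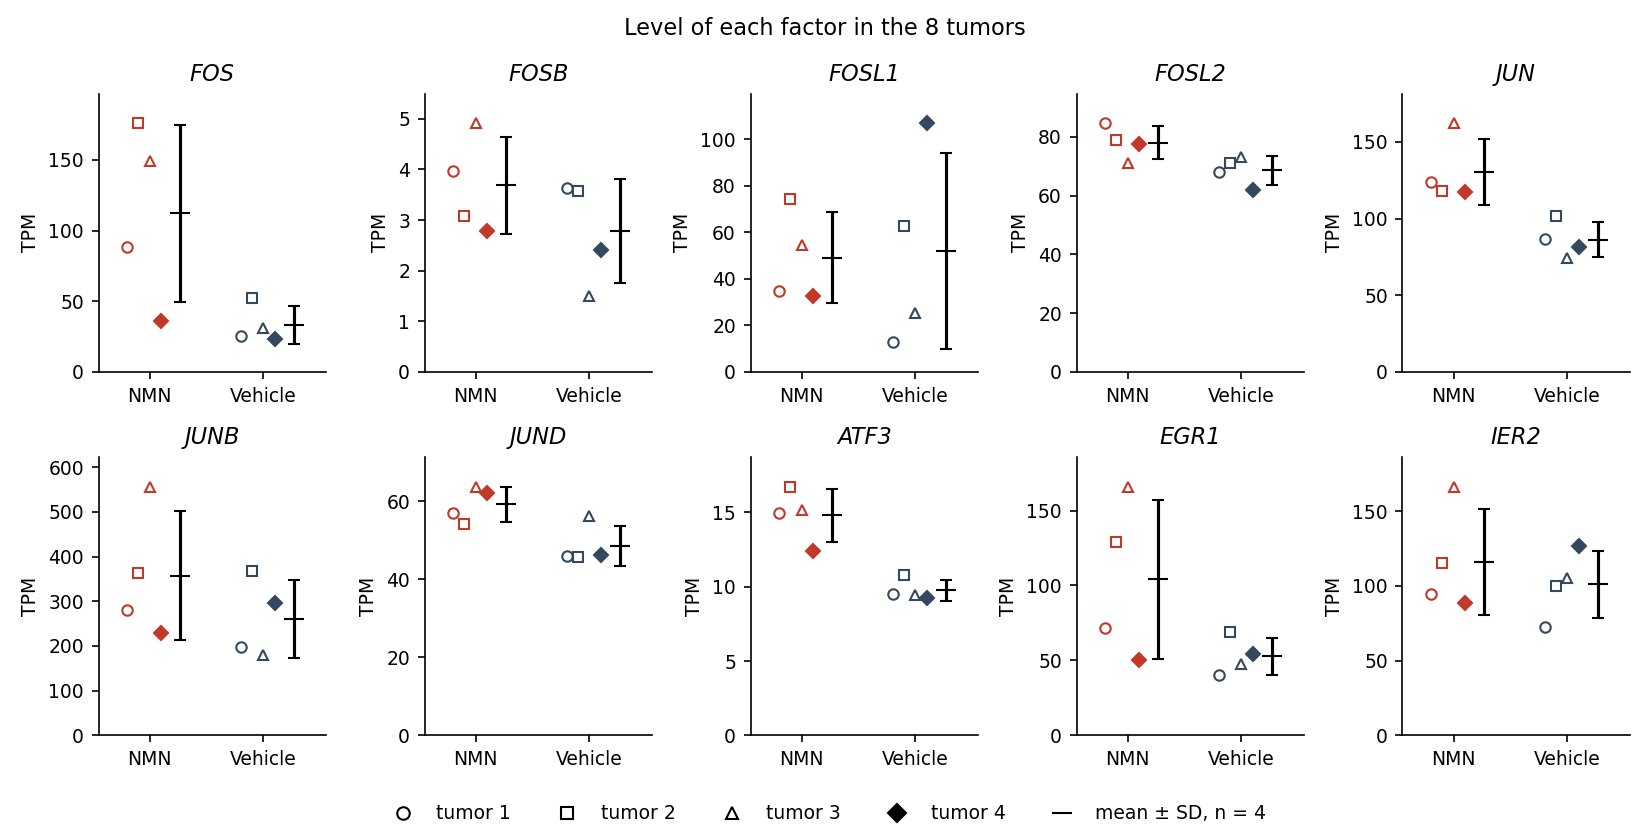
TPM (vertical axis, from 0) of each of the 10 genes in the 4 NMN tumors (red) and the 4 Vehicle tumors (blue), with the symbol giving the tumor number and bars giving the mean ± SD of 4 tumors. In JUN and ATF3 every NMN tumor lies above every Vehicle tumor in TPM as deposited, though not with every scaling; in FOS and EGR1 this holds for NMN 1 to 3, and NMN 4 (filled) lies among the Vehicle tumors; the highest FOSL1 value is that of Vehicle 4.

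No member passed at an adjusted p under 0.05, and none of the 13358 tested genes did in limma (0%). At an unadjusted p under 0.05 stood 5 of the 10, FOS, JUN, JUND, ATF3 and EGR1, all with the higher mean in NMN tumors, against 4.79% of tested genes in that direction and 6.94% in both. Over all tested genes 640 were higher and 287 lower at that p, and 640 and 514 with quantile scaling. By the exact permutation test, p was 0.0286 for JUN and ATF3, 0.0571 for FOS and JUND, and 0.114 for EGR1. All 10 had a positive log2 fold change, against 51% of tested genes. The median of the 10 was 0.38, against 0.00 over all tested genes, and the members are not independent of each other.

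Without NMN 4 the FOS log2 fold change was 2.03 and FOS passed (limma, adjusted p = 0.0199). FOS was then 1 of 10 members called, against 0.404% of tested genes. Over the 18 other settings and the one reported, the adjusted p of FOS ran from 0.0199 to 0.938, the highest without NMN 3, where its log2 fold change was 1.36. The other 9 members did not pass without NMN 4, with adjusted p-values such as 0.0975 for ATF3, 0.117 for JUN and 0.131 for EGR1 in limma. Leaving out NMN 4 compares 3 tumors with 4 and was not part of the study's design. NMN 4 was the NMN tumor with the lowest FOS, at 36.2 TPM and within the Vehicle range. Leaving it out had to raise the FOS fold change, so this fit is not separate support for a difference in FOS.

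**Figure D3:**
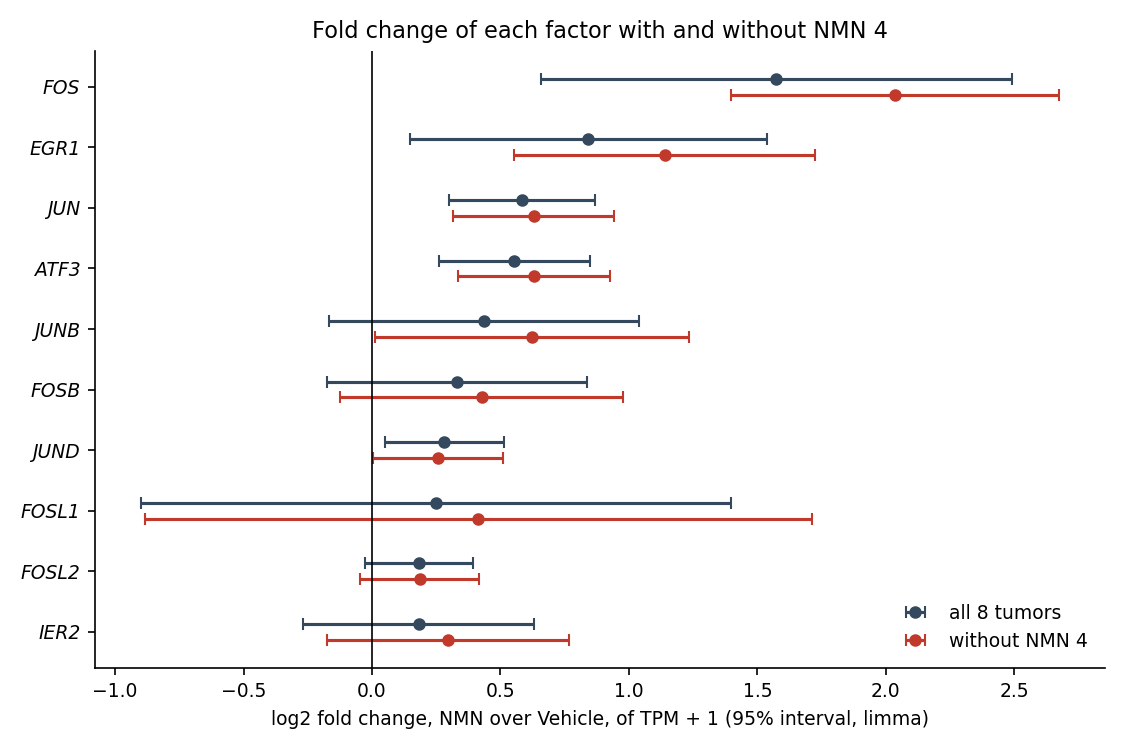
Log2 fold change of TPM + 1, NMN over Vehicle (horizontal axis), of each of the 10 genes with its 95% interval from limma, over all 8 tumors (blue) and without NMN 4 (red). The intervals of FOS, EGR1, JUN, ATF3 and JUND lie above 0 in both fits. The FOS estimate is 1.57 over all 8 tumors and 2.03 without NMN 4, the NMN tumor with the lowest FOS.

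The tumors that carried the higher levels were NMN 3, NMN 2 and NMN 1. Of the 10 genes, 6 were highest in NMN 3, against 12.1% of tested genes, 2 in NMN 2 against 5.2%, 1 in NMN 1 against 6.73%, 1 in Vehicle 4 against 16.9%, and 0 in NMN 4 against 24.6%. None was highest in Vehicle 1, Vehicle 2 or Vehicle 3, against 12.8%, 3.47% and 18.3% of tested genes. NMN 3 lay above the whole Vehicle range in 8 genes, against 19.8% of tested genes in that tumor, NMN 1 in 7 against 16.4% and NMN 2 in 5 against 10.8%. NMN 4 lay above it in 4, namely FOSL2, JUN, JUND and ATF3, against 32.3% of tested genes in that tumor, a share close to its background. No NMN tumor lay below the Vehicle range in any of the 10.

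All of NMN 1, NMN 2 and NMN 3 stood above every Vehicle tumor in 4 of the 10 genes, FOS, JUN, ATF3 and EGR1, against 3.84% of tested genes. The grouping of NMN 1 to 3 was taken from these same levels, so this count is a description. Among the Vehicle tumors, Vehicle 2 was the highest in 5 of the 10, FOS, JUN, JUNB, ATF3 and EGR1, against 7.79% of tested genes for that tumor. Vehicle 1 was highest of the 4 in 1 gene (30.1%), and Vehicle 3 and Vehicle 4 in 2 each (36.1% and 25.9%). The mean deviation of the 10 genes from their 8-tumor mean was 0.13, 0.45, 0.63 and -0.16 on the log2 scale in NMN 1 to 4, against -0.53, 0.05, -0.42 and -0.14 in Vehicle 1 to 4. By this measure Vehicle 2 and Vehicle 4 were above NMN 4. By the median deviation Vehicle 2, at -0.04, was still above NMN 4, at -0.19, but Vehicle 4, at -0.25, was below it.

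**Figure D4:**
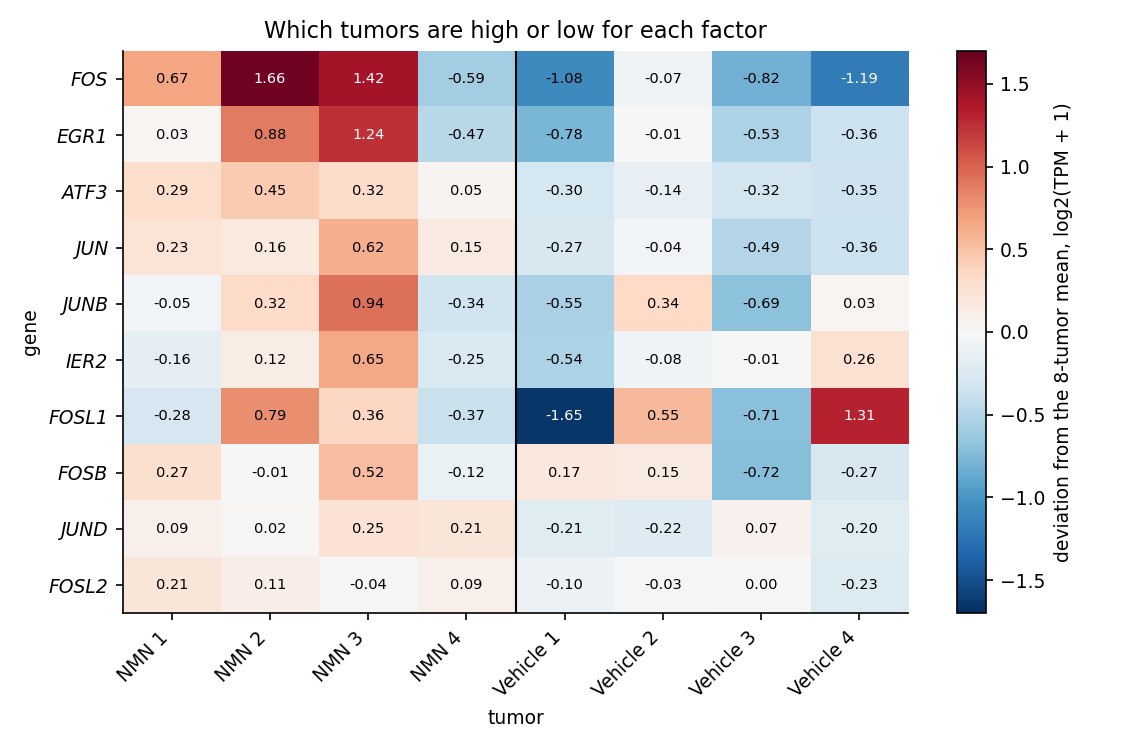
Deviation of each gene (rows) in each tumor (columns, NMN tumors left of the line) from its mean over the 8 tumors, on the log2(TPM + 1) scale, red for higher and blue for lower. FOS runs from -1.19 in Vehicle 4 to 1.66 in NMN 2, FOSL1 from -1.65 in Vehicle 1 to 1.31 in Vehicle 4, and JUND and FOSL2 stay within 0.25 of their means in every tumor.

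The members differed in how much they varied within a group. The coefficient of variation of FOS was 55.7% in NMN tumors and 40.2% in Vehicle tumors, that of EGR1 51.0% and 23.2%, and that of JUNB 40.2% and 33.8% in NMN and Vehicle tumors. That of FOSL1 was 39.8% in NMN tumors and 81.3% in Vehicle tumors. FOSL2 varied by 7.05% in NMN tumors and 7.11% in Vehicle tumors. The median tested gene varied by 14.4% in NMN tumors and 15.7% in Vehicle tumors, so FOS, FOSB, FOSL1, JUNB, EGR1 and IER2 varied more than the median gene in both groups, FOSL2, JUND and ATF3 less in both, and JUN more in NMN and less in Vehicle tumors.

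Other immediate early genes were examined as a list of 40, of which 37 were tested. None passed. At an unadjusted p under 0.05 were 10, all higher in NMN tumors, against 4.79% of tested genes, and 32 of 37 had a positive log2 fold change, against 51%, with a median of 0.33 against 0.00 over all tested genes. In 3 of them, EGR3, KLF6 and ZFP36L1, the groups did not overlap, against 2.08% of tested genes. IER3, an early response gene tied to survival signals, was at 167, 265, 220 and 114 TPM in NMN 1 to 4, against 81.2, 137, 66.1 and 107.5 TPM in Vehicle 1 to 4, with NMN 4 again inside the Vehicle range (log2 fold change 0.95 ± 0.26, limma, adjusted p = 0.348). ZFP36L1, which encodes a protein that binds AU-rich elements and speeds mRNA decay, averaged 629 ± 76.8 TPM in the NMN group, against 365 ± 163 TPM in the Vehicle group (log2 fold change 0.89 ± 0.26, limma, adjusted p = 0.372). GADD45B, a stress response gene, had a log2 fold change of 0.76 ± 0.24 (limma, adjusted p = 0.420).

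The other AP-1 family genes, such as further ATF, BATF and MAF proteins, were a list of 18 with 16 tested. None passed, 10 had a positive log2 fold change, against 51% of tested genes, and 6 a negative one, the median was 0.09, and 2 stood at an unadjusted p under 0.05, both higher in NMN tumors (4.79%). MAFF, a small MAF protein, was at 32.5, 34.6, 35.7 and 21.4 TPM in NMN 1 to 4, against 15.5, 24.3, 18.6 and 18.1 TPM in Vehicle 1 to 4, so that, as in FOS, NMN 4 alone of the NMN tumors lay among the Vehicle tumors (log2 fold change 0.66 ± 0.18, limma, adjusted p = 0.348). ATF5 had a log2 fold change of -0.23 ± 0.14.

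The genes upstream, 23 in all, were kinases, SRF with its partners, and CREBBP and EP300. All were tested, and their median log2 fold change was 0.01. None passed, none stood at an unadjusted p under 0.05, and their log2 fold changes ran from -0.29 for the kinase gene RPS6KA3 to 0.16 for RPS6KA1, with 0.12 ± 0.09 for MAP2K1, which encodes MEK1. Of 12 genes known to respond to ERK signalling, among them feedback inhibitors of the DUSP, SPRY and SPRED families and the transcription factor genes ETV4 and ETV5, none passed. A positive log2 fold change was found in 7, against 51% of tested genes, the median was 0.06, and 1 stood at an unadjusted p under 0.05. ERRFI1, a feedback inhibitor of EGFR, was that 1 and the only one of the 12 with no overlap (2.08% of tested genes), with 92.1 ± 27.1 TPM in the NMN group, against 38.4 ± 8.39 TPM in the Vehicle group (log2 fold change 1.22 ± 0.21, limma, adjusted p = 0.221). SPRY1 and DUSP5 had log2 fold changes of 0.33 ± 0.20 and 0.43 ± 0.27.

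Of 26 genes known as AP-1 targets, 23 were tested. None passed, 15 had a positive log2 fold change, against 51% of tested genes, and 8 a negative one, and the median was 0.12. At an unadjusted p under 0.05 were 6, all higher in NMN tumors (4.79% of tested genes), and the groups did not overlap in PLAUR and EZR (2.08%). PLAUR, the urokinase receptor, averaged 32.5 ± 4.87 TPM in the NMN group, against 19.9 ± 3.60 TPM in the Vehicle group (log2 fold change 0.68 ± 0.16, limma, adjusted p = 0.268). VEGFA, an angiogenic growth factor gene, had a log2 fold change of 0.98 ± 0.31 (limma, adjusted p = 0.426) and is also among the HIF target genes below.

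The summed levels of HIF target genes and of skeletal muscle markers in NMN 1, NMN 2 and NMN 3 lay outside the range of the other 5 tumors, above it for the HIF targets and below it for the muscle markers. All 16 HIF target genes tested had a positive log2 fold change, against 51% of tested genes, with a median of 0.79, and none passed. In 13 of them NMN 1, NMN 2 and NMN 3 all stood above every Vehicle tumor, against 3.84% of tested genes. The list and the grouping of NMN 1 to 3 were chosen with these data in view, so this count is a description. The summed level of the HIF targets was 4862, 6701, 6771 and 2933 TPM in NMN 1 to 4, against 2435, 3629, 2698 and 2592 TPM in Vehicle 1 to 4. BNIP3, a mitophagy receptor gene, was at 120, 188, 155 and 79.0 TPM in NMN 1 to 4, against 54.0, 58.5, 66.8 and 61.05 TPM in Vehicle 1 to 4, and DDIT4 and ERO1A had log2 fold changes of 1.23 ± 0.31 and 0.78 ± 0.21. Vehicle 2, the Vehicle tumor with the most FOS, was also the highest Vehicle tumor in this sum. Skeletal muscle markers, 15 genes, summed to 91.9, 95.1, 95.9 and 697 TPM in NMN 1 to 4, against 904, 736, 2681 and 463 TPM in Vehicle 1 to 4. In NMN 1 to 3 most of that sum was MB, the myoglobin gene, at 44.3, 65.8 and 52.85 TPM, and TNNI2, at 41.15, 23.7 and 38.3 TPM. ACTA1, skeletal muscle actin, was at 0.88, 0.36, 1.16 and 268 TPM in NMN 1 to 4, against 263, 261, 1024 and 178 TPM in Vehicle 1 to 4. Of the 14 muscle markers tested, 13 had the lower mean in NMN tumors and none passed. TTN was listed at 0 in NMN 1 to 3 and no muscle marker at 0 in all 8 tumors. Endothelial markers summed to between 5.40 and 7.32 TPM in the NMN group, against 3.66 to 5.67 TPM in the Vehicle group. For fibroblast markers these ranges were 121 to 237 and 192 to 292 TPM, for myeloid markers 51.5 to 92.2 and 54.3 to 78.7 TPM, and for adipocyte markers 16.0 to 217 and 10.85 to 99.96 TPM, NMN tumors before Vehicle tumors. Of the 7 endothelial markers, 5 stayed under 1 TPM in all 8 tumors. KDR had the higher mean in NMN tumors, 3.94 against 1.83 TPM, and VWF the lower, 1.16 against 1.64 TPM. The highest adipocyte sums were mostly FABP4, at 212 TPM in NMN 2 and 92.2 TPM in Vehicle 3. The part of the HIF targets and of these marker groups in the levels of the AP-1 genes was not tested.

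The 5 tested genes whose log2(TPM + 1) over the 8 tumors was most like that of FOS were NDRG1, CASP14, C4orf3, VEGFA and PDK1, with Pearson correlations from 0.974 to 0.985 and Spearman correlations from 0.905 to 1. NDRG1, VEGFA and PDK1 are also among the HIF target genes described above. The 5 genes were picked as the highest of all tested genes over 8 points that share the 2 groups, so this is a description without a test. NDRG1 was at 2389, 3365, 3195 and 1389 TPM in NMN 1 to 4, against 1097, 1852, 1427 and 1346 TPM in Vehicle 1 to 4. With group means taken out, the 5 correlations with FOS ran from 0.954 to 0.989.

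Gene structure was not used to choose the genes. In GENCODE 29 (GRCh38), JUN, JUNB, JUND and IER2 had a principal transcript of 1 exon, 4 of 10 against 2.17% of tested genes, where the median gene had 9 exons. The gene span was under 4000 bases in 5 of 10, against 6.29% of tested genes. The others were longer, up to 24865 bases for FOSL2 and 55444 for ATF3. FOS spans chr14:75278774-75282230 on the plus strand and JUN chr1:58780788-58784327 on the minus strand. FOSB lies within the span of ERCC1 and JUNB within that of HOOK2, each on the opposite strand. Annotated exons overlapped over 259 of the 1820 exonic bases of JUNB and over 0 for FOSB, and over 946 of the 3072 exonic bases of IER2 with its antisense gene AC011446.2. No label says whether counting used strand, and without it reads from these shared bases cannot be told apart.

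AU-rich elements in the 3' UTR are known to shorten the life of FOS mRNA. The pentamer ATTTA was present in the 3' UTR of 9 of the 10, IER2 being the exception, against 68.2% of the 12858 tested genes with a 3' UTR in this annotation. FOS had the densest pentamers of the set, 5 in 806 bases or 6.20 per kilobase, against a median of 1.52 per kilobase over those genes. The longer element TTATTTATT was found in FOS and FOSL2, 2 of 10 against 8.21%. The stretches with the most pentamers, in capitals, are shown for FOS (chr14:75282058-75282087, plus strand) and FOSL2 (chr2:28416349-28416378, plus strand), the most and the least variable of the FOS-type genes in NMN tumors.
FOS: tgtgtttttaATTTATTTAttaagatggat
FOSL2: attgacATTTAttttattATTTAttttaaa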

How the data were processed

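The deposited table gives TPM per gene, computed by the authors, for each of the 8 tumors. Tools and build, per the submitters' processing notes and without their roles, were RSEM 1.2.8, Bowtie2 2.2.5, HISAT2 2.1.0 and GRCh38.p13. The treatment of mouse reads is not stated there. Each library sums to 1000000, so depth is unknown and precision rests on the 4 tumors per group. Genes with TPM of at least 1 in at least 4 of 8 libraries, 13358 in all, were tested with limma 3.58.1 in R 4.3.3 on log2(TPM + 1), with a mean-variance trend and group as the only term, two-sided, with Benjamini-Hochberg adjustment at 0.05. The model was also run on simulated data in which genes varied independently, without shifts shared by the genes of a tumor. No result given here rests on that run. Single genes were also compared by an exact permutation test. Pseudocounts of 0.1 and 5, no filter or one at 5 TPM, median-of-ratios and quantile scaling, a fit without the trend, a robust one, one with library weights, one blocked on replicate number, and leaving out each tumor were tried. Every member was named, with up to 3 genes of each other list by smallest unadjusted p and any gene needed to describe it, and the 5 genes most like FOS; some genes under this rule are not reported here. Members and lists were chosen with earlier results of these data known. Gene structure is from GENCODE 29, promoters from RefSeq; the 3' UTR is that of the APPRIS principal transcript with the longest coding sequence.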

Additional observations from a re-analysis of the deposited data

Results flagged for a closer look

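In JUN, NMN 3 at 162 TPM stood apart from the other NMN tumors, with a gap to the nearest of them of 0.853 of the group's range. In JUND, Vehicle 3 at 56.3 TPM stood apart from the other Vehicle tumors, with a gap of 0.953 of the range. Both lie beyond Dixon's 95% limit for 4 samples. Of 26 groups of 4 examined, 2 were beyond it, and chance gives about 1 in 20.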

How the results depend on the processing

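Over 18 other settings, 176 of 179 member fold changes kept their direction and their side of the threshold. Part of this count was fixed in advance. The filters, the fit without the trend, the robust fit and the block leave each fold change itself unchanged. No member passed in the reported fit, so keeping the side of the threshold meant not passing. FOS passed without NMN 4, the NMN tumor with the lowest FOS (log2 fold change 2.03, limma, adjusted p = 0.0199). The number of members called with a tumor left out thus ran from 0 to 1. With a tumor left out, the FOSL1 value was lowest, at -0.26, when Vehicle 1 was dropped and highest, at 0.73, when Vehicle 4 was. The IER2 value was lowest, at -0.0054, when NMN 3 was dropped and highest, at 0.30, when Vehicle 4 was. The median of the 10 members ran from 0.24 to 0.54 with a tumor left out, and all members tested kept a positive fold change under both scalings, which moved the median of all genes by at most -0.018. Of all genes, limma called 0 in the reported fit, 54 with library weights, and from 0 to 54 with a tumor left out: 54 without NMN 4 and 1 without Vehicle 3. With the replicate number as a block it called 2 and no member. The standard error then moved from 0.42 to 0.24 for FOS and from 0.13 to 0.15 for JUN. Same-numbered tumors had correlations from -0.123 to 0.0258 in their deviations, and 0 of 4 NMN tumors correlated best with their own number. These correlations come from 4 tumors per group, so they cannot settle whether the numbers pair the tumors. TPM gives no depth, and FOSB, at 1.5 to 4.91 TPM, is the member nearest the filter.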

Other observations

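Vehicle 4, the tumor with the most FOSL1, was also the highest of the 8 tumors in 11 of the 23 tested AP-1 target genes, against 16.9% of all tested genes. They included MMP9, PLAU, CCND1, CD44, TIMP1, KRT17, IVL, SPRR1B, ITGA2 and TGFB1, and they were looked at after the FOSL1 value had been seen. PLAU, the urokinase gene, was at 35.3, 32.9, 34.1 and 31.8 TPM in NMN 1 to 4, against 33.1, 35.1, 35.4 and 74.1 TPM in Vehicle 1 to 4. HBEGF, a ligand of EGFR in the list of immediate early genes, was at 28.25, 43.6, 32.6 and 18.8 TPM in NMN 1 to 4, against 9.58, 46.6, 15.25 and 76.6 TPM in Vehicle 1 to 4, and was highest in Vehicle 4 as well. FOS was lowest there, at 23.6 TPM.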
